A study of Homo sapiens with 10 samples.

Results

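MicroRNA genes with reads were examined in sequenced RNA from human embryonic stem cells. Members were selected on their measured level, as rows of the count table that GENCODE 44 annotates as microRNA genes and whose mean over the 10 libraries was at least 1 CPM (the count scaled to a common library total). Of 1167 microRNA rows in a table of 55841 genes, 17 reached this limit. A further 85 had a mean from 0.1 to under 1 CPM, 673 lay above 0 but under 0.1 CPM, and 392 had no count in any library. The last members above the limit were MIR367 at 1.096 CPM, MIR4449 at 1.064 and MIR3143 at 1.001, and the first rows under it were MIR4728 at 0.996, MIR1229 at 0.96 and MIR1226 at 0.959. Whether these last 3 members reached the limit depended on the libraries used. The mean fell under 1 CPM without the HHH libraries of batch 1 for MIR4449 (0.394), without the HHH libraries of batch 2 (0.881) or the general libraries of batch 1 (0.984) for MIR3143, and without the general libraries of batch 2 for MIR367 (0.97).

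The cells were of the line HES9 per the labels, grown in mTESR1 medium on matrigel without feeder cells. The unsorted culture, called general, was compared with the fraction sorted for the highest GCTM-2, CD9 and EPCAM surface antigen, called HHH, to which the study assigns a high capacity for self-renewal. Cells of the HHH phenotype are also part of the general population, and neither population is labelled with any genetic change. Each population had 5 libraries, with 2 of each in batch 1 and 3 of each in batch 2, as the titles state. Nothing in the labels says that the libraries came from separate cultures, so the p-values measure the spread between these libraries only.

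Library totals ran from 47242595 to 78503395 counts, at which 3 counts stand for 0.046 to 0.0687 CPM. Summed CPM of 7 pluripotency markers (POU5F1, SOX2, NANOG, LIN28A, DNMT3B, TDGF1 and ZFP42) was 4150 to 5240 in general and 3970 to 4900 in HHH libraries, and none of the 7 was at 0. The 5 neural markers (PAX6, SOX1, LHX5, LIX1 and NES) summed to 193 to 275 CPM in general and 128 to 246 in HHH. The 6 fibroblast markers (COL1A1, COL1A2, COL3A1, THY1, LUM and DCN) summed to 260 to 278 and 288 to 342. Only 3 of these 6 had enough counts to be tested. By the thresholds given below, 1 was called higher and 1 lower in HHH over all libraries. The 6 mesendoderm and endoderm markers summed to 0.736 to 1.48 in general and 0.937 to 2.57 in HHH. The batches differed in their share of short RNA, since small nuclear and nucleolar RNAs took 2.71 to 4.97% of the counts in batch 1 and 0.418 to 0.727% in batch 2.

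A microRNA is cut from a longer transcript in steps. The enzyme DROSHA, with its partner DGCR8, releases a hairpin precursor in the nucleus, and DICER1 trims the hairpin in the cytoplasm to the short mature strand, which guides an Argonaute protein to messenger RNAs that pair with its seed, the bases near its 5′ end. Many microRNA genes lie within a host gene, in an intron or an exon, and share its transcript. A library made from long RNA largely misses mature microRNAs, so that a count at a microRNA gene can stand for the uncut primary transcript, for the hairpin or for the RNA of a host. In pluripotent human cells the best known microRNAs are those of the miR-302/miR-367 cluster, in which the 3′ strands of the miR-302 genes have the seed of the miR-372 family.

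Sequences from RefSeq (GRCh38.p14) were found for 14 of the 17 members, 12 with a mature sequence and 12 with a hairpin. MIR3609, MIR4664 and ENSG00000264063 had no entry. The mature strands of the miR-302/miR-367 cluster are given because 4 of the 17 members belong to it. The capitals mark the seed, bases 2 to 8 counted from the 5′ end.
hsa-miR-302a-3p: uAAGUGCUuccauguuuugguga
hsa-miR-302c-3p: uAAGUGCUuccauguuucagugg
hsa-miR-302d-3p: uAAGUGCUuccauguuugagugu
hsa-miR-367-3p: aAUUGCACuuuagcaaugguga

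The 3 strands of the miR-302 genes have 1 seed in common, and miR-367-3p has another. Among all 19 mature strands listed for the members there were 17 seeds, and the seed of the miR-302 strands was the only one that more than 1 strand carried.

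The hairpins are what the count table covers, since the annotated microRNA gene is the hairpin and not the mature strand. Those of the cluster are shown in the order of transcription, with the mature strands in capitals.
MIR302C: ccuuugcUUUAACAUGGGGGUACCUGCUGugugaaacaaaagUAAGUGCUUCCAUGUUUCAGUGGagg
MIR302A: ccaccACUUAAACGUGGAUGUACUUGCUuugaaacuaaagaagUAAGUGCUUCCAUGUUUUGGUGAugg
MIR302D: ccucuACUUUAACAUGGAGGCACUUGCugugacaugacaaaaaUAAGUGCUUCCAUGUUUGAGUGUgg
MIR367: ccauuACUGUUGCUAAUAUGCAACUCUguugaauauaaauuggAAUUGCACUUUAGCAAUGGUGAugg

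In batch 1 the HHH libraries all lay above the general ones for MIR3648-2, ENSG00000264063, MIR4449, MIR3187 and MIR3661. They all lay below for MIR1282, MIR3193, MIR302A and MIR302C. The share of all genes without overlap was not determined. With 2 libraries of each population such separation arises easily, so it is a description and not a result. The mature strands of MIR3648-2, MIR4449 and MIR3187 are given as well, again with the seed in capitals.
hsa-miR-3648: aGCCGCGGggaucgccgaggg
hsa-miR-4449: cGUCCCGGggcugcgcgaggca
hsa-miR-3187-5p: cCUGGGCAgcguguggcugaagg
hsa-miR-3187-3p: uUGGCCAUggggcugcgcgg

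In the GRCh38 genome all 12 hairpins had a single exact match on either strand. The 21-base strand of miR-3648 had 8. Of these, 1 is in MIR3648-2 itself and 3 are in the RefSeq genes of the 45S ribosomal RNA precursor on chromosome 21 (RNA45SN1, RNA45SN2 and RNA45SN3), at base 2513 of each and 1098 to 1121 bases before the 18S ribosomal RNA. The other 4 are on scaffolds without a place in a chromosome sequence. Reads of these letters therefore cannot be assigned to 1 locus.

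In the comparison of HHH with general over all 10 libraries, with batch as a term, none of the 17 members was called. The picture within each batch was different. Calls needed both a fold change over 1.5 and an adjusted p under 0.05 in edgeR's quasi-likelihood test (Benjamini-Hochberg over all tested genes). At these thresholds 0 of 17 members passed, where 2.98% of the 23552 tested genes did. At an unadjusted p under 0.05 there were 4 of 17 (MIR302A, MIR302C, ENSG00000264063 and MIR4449), where 20.9% of all tested genes passed that limit. DESeq2 also called 0, limma with voom 2 (MIR4449 and ENSG00000264063), and limma on the deposited log2 values 0. Of the members 6 were higher and 11 lower in HHH, and their median log2 fold change was -0.16, where that of all tested genes was 0.016. Within batch 1, 2 members were called, both higher in HHH, where 0.573% of 23720 genes were called. Within batch 2, 2 others were called, both lower in HHH, where 4.9% of 24025 genes were called.

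**Figure D1:**
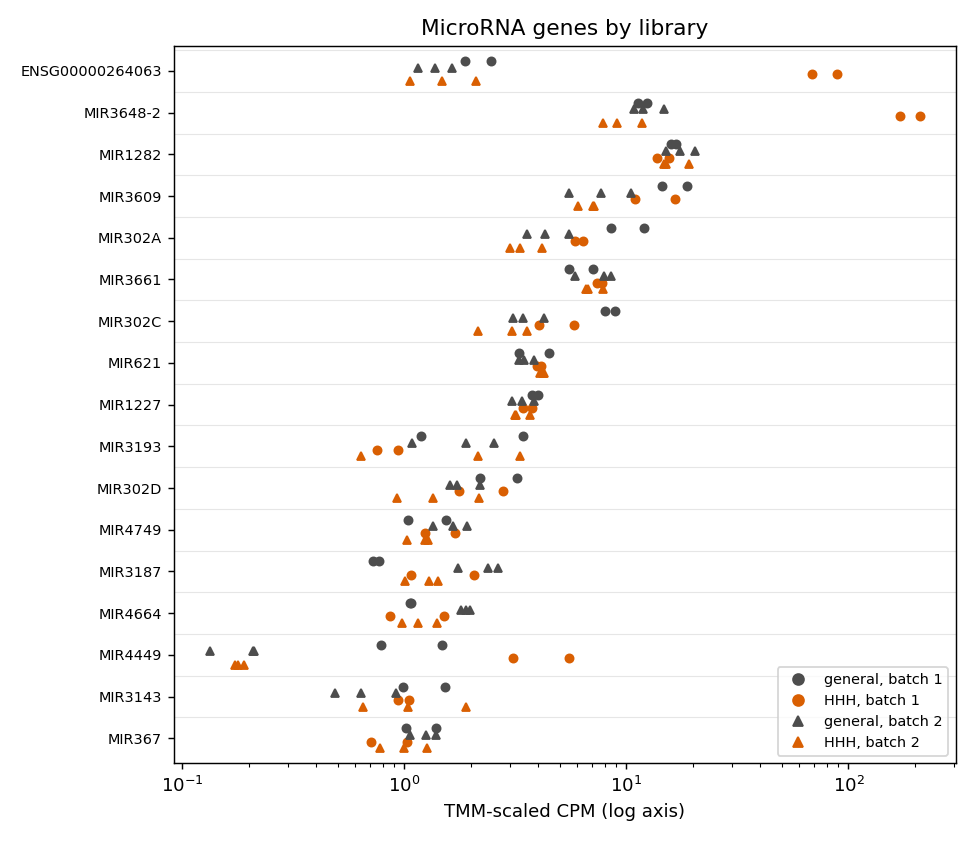
TMM-scaled CPM (log axis) of the 17 microRNA genes, 1 point per library, ordered by mean RPKM; grey is general, orange HHH, circles batch 1, triangles batch 2. MIR3648-2 and ENSG00000264063 stand at 68.2 to 210 CPM in the HHH libraries of batch 1 and at 1.06 to 14.8 in all others, while MIR4449 separates the batches.

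Averaged over all 10 libraries, the highest levels per length among the members belonged to a pair of neighbouring genes on chromosome 21. The same pair had the largest differences within batch 1. MIR3648-2 (chr21:8986999-8987178, plus strand) and ENSG00000264063 (chr21:8987370-8987430, plus strand), a microRNA gene without a symbol in the annotation, are 192 bases apart and overlap no other annotated gene, so no host exon was found for either. Without the HHH libraries of batch 1 their means were still 11.6 and 1.66 CPM, over the limit of the selection. MIR1282 then had a mean of 17.5 CPM on 101 bases, against 180 bases for MIR3648-2 and 61 for ENSG00000264063. The rank of the pair per length thus rests on the HHH libraries of batch 1. Their mean levels were 261 and 279 RPKM, here TMM-scaled CPM per kilobase of the gene. MIR3648-2 had 210 and 170 CPM in the HHH libraries of batch 1, against 11.3 and 12.4 CPM in the general libraries of the same batch. In batch 2 it had 7.87, 9.04 and 11.7 CPM in HHH and 10.8, 14.8 and 11.9 in general. The groups did not overlap in batch 1 and overlapped in batch 2. The difference was 15.9-fold in batch 1 (log2 fold change 3.99 ± 0.15 (SE), adjusted p = 6.6e-06 by edgeR) and -0.40 ± 0.15 on the log2 scale in batch 2 (adjusted p = 0.0893).

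ENSG00000264063 had the same shape at lower counts. It stood at 89.1 and 68.2 CPM in the HHH libraries of batch 1 and at 1.87 and 2.45 CPM in the general ones. In batch 2 it had 1.06, 1.47 and 2.09 CPM in HHH and 1.15, 1.63 and 1.37 in general, with overlap. The fold change was 36.3 in batch 1 (log2 5.18 ± 0.20 (SE), adjusted p = 6.6e-06), and the log2 fold change was 0.15 ± 0.24 in batch 2 (adjusted p = 0.713). Among 23720 genes ordered by their log2 fold change in batch 1, ENSG00000264063 was number 3 and MIR3648-2 number 5.

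The change in batch 2 over that in batch 1 was tested as an interaction, which called 3 members where 0.773% of 23552 genes were called. The log2 ratio was -4.39 for MIR3648-2 (adjusted p = 4.67e-07) and -5.03 for ENSG00000264063 (adjusted p = 2.88e-06). The level per length of ENSG00000264063 over that of MIR3648-2 was itself 1.25 and 1.18 in the HHH libraries of batch 1, 0.487 and 0.581 in the general libraries of that batch, and 0.312 to 0.527 in batch 2. Annotated ribosomal RNA genes and pseudogenes took 0.0764 and 0.0571% of the counts in the HHH libraries of batch 1, 0.0405 and 0.0381% in the general libraries of batch 1 and 0.0113 to 0.0207% in batch 2. The part of ribosomal precursor RNA in the counts of the pair was not tested. Without the HHH libraries of batch 1, the log2 fold change of MIR3648-2 over the remaining 8 libraries was -0.39 (adjusted p = 0.0958), an alternative chosen after the data were seen.

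With the pair, the 17 members summed to 373 and 300 TMM-scaled CPM in the HHH libraries of batch 1 and to 55.7 to 95.2 in the other 8. Without it, the other 15 summed to 74.1 and 62.0 CPM in those HHH libraries, 82.0 and 72.6 in the general libraries of batch 1, 46.7 to 59.5 in HHH and 51.7 to 65.8 in general of batch 2. The HHH libraries of batch 1 thus lay within the range of the others in this sum, although MIR4449, 1 of the 15, was highest in them.

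**Figure D2:**
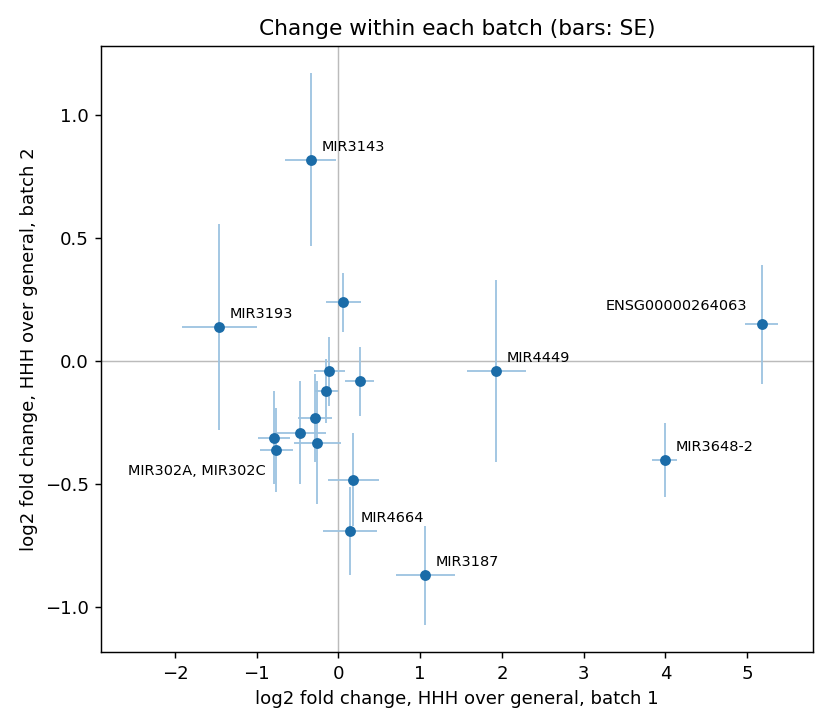
Log2 fold change of HHH over general in batch 1 (horizontal) and in batch 2 (vertical) for the 17 microRNA genes, each from an edgeR fit of its batch alone, with bars of 1 SE. MIR3648-2 and ENSG00000264063 lie at 3.99 and 5.18 in batch 1 and at -0.40 and 0.15 in batch 2, and MIR3187 is at 1.06 and -0.87.

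The miR-302/miR-367 cluster gave 4 members, and all 4 had lower fitted values in HHH in both batches. MIR367 fell under the limit without the general libraries of batch 2. Its direction in batch 2 was therefore in part set by the choice of members and is a description. With every library and the filter on low counts, edgeR called none of them over all libraries or within a batch. MIR302A (chr4:112648183-112648251), MIR302C (chr4:112648363-112648430), MIR302D (chr4:112648004-112648071) and MIR367 (chr4:112647874-112647941) lie on the minus strand, wholly within the last of the 2 exons of the long noncoding host transcript MIR302CHG, from base 1622 to base 2178 after its start. They are also antisense to an intron of LARP7, which encodes a 7SK RNA-binding protein. MIR302B is not analysed here. The host exon is on the same strand as the hairpins, so that reads of the host transcript and of the hairpins cannot be told apart.

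MIR302A had 12 and 8.55 CPM in the general libraries of batch 1 and 6.37 and 5.84 in the HHH libraries. In batch 2 it had 4.31, 5.49 and 3.57 CPM in general and 2.99, 3.30 and 4.17 in HHH. The populations did not overlap in batch 1 and overlapped in batch 2. Its log2 fold change was -0.52 ± 0.15 (SE) over all libraries (adjusted p = 0.0556), -0.76 ± 0.20 in batch 1 (adjusted p = 0.171) and -0.36 ± 0.17 in batch 2 (adjusted p = 0.177). Over all libraries the adjusted p passed 0.05 with DESeq2 (0.0143), with library size only (0.0295) and with no filter on low counts (0.00168). The fit with no filter gave far smaller p-values for other members too, as stated in the last section. It passed both thresholds without general batch 2 replicate 3 (0.0272) or HHH batch 2 replicate 3 (0.0232). In batch 1 both were passed with no filter (0.00394) and without general replicate 2 (log2 fold change -0.99, adjusted p = 0.00313), a fit with 1 general library.

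MIR302C had 8.92 and 8.02 CPM in general and 5.81 and 4.03 in HHH in batch 1. In batch 2 it had 3.09, 4.27 and 3.43 CPM in general and 2.15, 3.06 and 3.57 in HHH. As for MIR302A, overlap was seen only in batch 2. The log2 fold change was -0.50 ± 0.16 over all libraries (adjusted p = 0.0882), -0.79 ± 0.20 in batch 1 (adjusted p = 0.170) and -0.31 ± 0.19 in batch 2 (adjusted p = 0.290). Over all libraries the adjusted p passed 0.05 with DESeq2 (0.0351) and with no filter (0.00514), and both thresholds were passed without HHH batch 2 replicate 3 (0.0344). In batch 1 both were passed with no filter (0.00407) and without general replicate 2 (log2 fold change -0.88, adjusted p = 0.0251).

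MIR302D had 3.22 and 2.18 CPM in general and 2.77 and 1.76 in HHH in batch 1, and 1.61, 2.19 and 1.73 in general and 0.927, 1.35 and 2.16 in HHH in batch 2. MIR367 had 1.38 and 1.02 CPM in general and 1.03 and 0.71 in HHH in batch 1, and 1.06, 1.25 and 1.38 in general and 0.773, 1.00 and 1.26 in HHH in batch 2. The populations overlapped in both batches for both genes. Their log2 fold changes over all libraries were -0.29 ± 0.21 (adjusted p = 0.458) and -0.35 ± 0.18 (adjusted p = 0.283).

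Along the transcript the mean level per length was 68.2 RPKM at MIR302C, 81.9 at MIR302A, 29.3 at MIR302D and 16.0 at MIR367, beside 58.1 RPKM over all exons of MIR302CHG. The host itself had 122 to 185 CPM in batch 1 and 82.0 to 160 in batch 2, and its log2 fold change was -0.19 ± 0.16 (adjusted p = 0.522) in HHH. The fitted values of MIR302A and MIR302C were lower than that of the host, but the difference between hairpin and host was not tested. The ratio of the level per length to that of the host was 0.865 to 2.66 for MIR302A, 0.747 to 2.01 for MIR302C, 0.325 to 0.727 for MIR302D and 0.189 to 0.418 for MIR367.

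**Figure D3:**
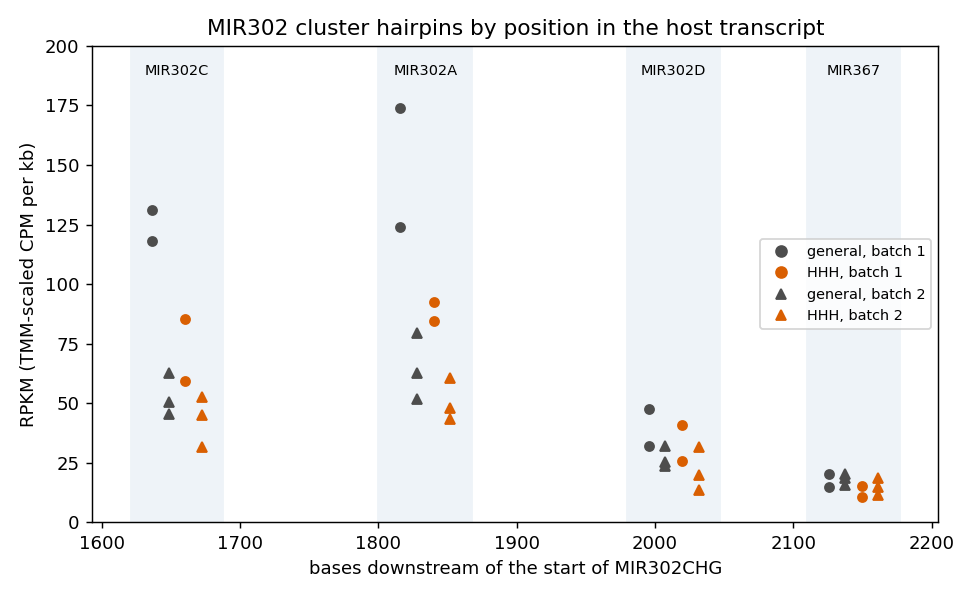
Level per length (RPKM, TMM-scaled CPM per kilobase) of the 4 hairpins of the miR-302/miR-367 cluster, placed by distance in bases from the start of MIR302CHG; points are libraries and shading marks the extent of each hairpin. MIR302C and MIR302A lie above MIR302D and MIR367, with means of 68.2 and 81.9 against 29.3 and 16.0 RPKM, and the general libraries of batch 1 are highest at the first pair.

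Of the other families of pluripotent and differentiating cells that were listed for this work, none had a member over 1 CPM. The highest of 3 miR-371 to miR-373 genes was MIR371A at a mean of 0.018 CPM, of 5 miR-200 and miR-141 genes MIR429 at 0.058, of 9 let-7 genes in the table MIRLET7F1 at 0.373 and of the 3 genes of the miR-106b/miR-25 cluster MIR25 at 0.609. The genes of the miR-17/miR-92 and miR-106a clusters are not analysed here. These levels are of precursor or host RNA and do not measure the mature strands.

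A pair of members lay in an exon of a host on the same strand, as the cluster does. MIR621 (chr13:40810766-40810861) is wholly in exon 8 of 8 of SLC25A15, a mitochondrial ornithine carrier, and all 96 of its bases are in the 3′ untranslated region of the canonical transcript. It had 3.97 and 4.14 CPM in HHH and 3.29 and 4.48 in general in batch 1, and 4.22, 4.08 and 4.26 in HHH and 3.28, 3.83 and 3.45 in general in batch 2. The HHH libraries of batch 2 were all above the general ones of that batch. The log2 fold change over all libraries was 0.18 ± 0.11 (adjusted p = 0.389), beside 0.19 ± 0.078 for SLC25A15 (adjusted p = 0.188).

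MIR4449 (chr4:52712682-52712747, plus strand) is wholly in exon 2 of 3 of DANCR, a long noncoding RNA that also hosts small nucleolar RNAs. It lies in an intron of LINC01618 on the same strand too, and 35 of its 66 bases are antisense to exon 2 of 2 of ENSG00000286161, which is not analysed here. It had 5.53 and 3.09 CPM in the HHH libraries of batch 1 and 0.782 and 1.48 in the general ones. In batch 2 all 6 libraries had 0.133 to 0.211 CPM. It entered the members only through the HHH libraries of batch 1, so its differences between populations and between batches were both in part set by the limit, and its values are given as a description. HHH and general did not overlap in batch 1, where the log2 fold change was 1.93 ± 0.36 (SE) and short of the threshold (adjusted p = 0.0643, or 0.00368 with library size only). In batch 2 the log2 fold change was -0.04 ± 0.37 (adjusted p = 0.958), and the interaction did not pass (log2 ratio -1.97, adjusted p = 0.110).

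The host of MIR4449 did not show that pattern. DANCR had 234 and 188 CPM in HHH and 207 and 224 in general in batch 1 (log2 fold change -0.03 ± 0.13, adjusted p = 0.944). The level of MIR4449 per length over that of DANCR was 3.64 and 2.53 in the HHH libraries of batch 1, 0.583 and 1.02 in the general ones, and at most 0.28 in batch 2. The nucleolar RNA gene SNORA26, which starts 502 bases further along DANCR, had 14.4 and 8.86 CPM in HHH and 9.58 and 8.27 in general in batch 1 and 2.53 to 3.61 in batch 2.

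MIR1282, MIR3661 and MIR3187 lie opposite to an exon of a counted host. They can be told from it only if strand was used in counting, which is not given in the sources used here. MIR1282 (chr15:43793659-43793759, minus strand) is antisense to exon 5 of 10 of SERF2 and also lies in an intron of ENSG00000262560, and 50 of its 101 bases face coding sequence of the canonical SERF2 transcript. Its CPM was 13.7 to 15.6 in HHH and 15.8 to 16.7 in general in batch 1, and 14.8 to 19.1 and 15 to 20.4 in batch 2. Its log2 fold change was -0.13 ± 0.10 (adjusted p = 0.502), with -0.05 for SERF2. MIR3661 (chr5:134225757-134225852, plus strand) has 93 of its 96 bases antisense to coding sequence in exon 1 of PPP2CA, the catalytic subunit of protein phosphatase 2A. Its CPM was 7.33 and 7.74 in HHH and 5.49 and 7.06 in general in batch 1, and 6.58 to 7.83 and 5.89 to 8.49 in batch 2. Its log2 fold change was 0.06 ± 0.12 (adjusted p = 0.823) and had no stable direction between alternatives, and that of PPP2CA was 0.10. Of the bases of MIR3661, 93 are also antisense to exon 1 of 6 of ENSG00000272772. MIR3661 also lies opposite an intron of ENSG00000273345. These further genes are not analysed here.

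MIR3187 (chr19:813584-813653, plus strand) is antisense over all 70 bases to coding sequence in exon 6 of 6 of PLPPR3, which encodes a phospholipid phosphatase-related membrane protein. In batch 1 it had 1.07 and 2.06 CPM in HHH and 0.766 and 0.721 in general. In batch 2 it had 1.29, 1.42 and 1.01 CPM in HHH and 1.74, 2.37 and 2.65 in general. HHH was above general in every library of batch 1 and below it in every library of batch 2. The log2 fold change was 1.06 ± 0.36 (SE) in batch 1 (adjusted p = 0.279) and -0.87 ± 0.20 in batch 2 (adjusted p = 0.0138), and the interaction passed (log2 ratio -1.93, adjusted p = 0.0411). The call in batch 2 was lost without HHH batch 2 replicate 3 (adjusted p = 0.0609) or general batch 2 replicate 3 (0.0673). That of the interaction was lost with library size only and when any of 8 of the 10 libraries was left out (adjusted p 0.056 to 0.154).

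PLPPR3 moved beside MIR3187. The host had 20.2 and 30.4 CPM in HHH and 16.9 and 14.9 in general in batch 1 (log2 fold change 0.67 ± 0.19, adjusted p = 0.218), and fell by 0.51 on the log2 scale in batch 2 (SE 0.11, adjusted p = 0.0108). Its own interaction was -1.17 (adjusted p = 0.0304). The deposited counts of MIR3187 were equal in all 10 libraries to those of 1 other identifier that has no match in the annotation.

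The 4 members in an intron of a host on the same strand were MIR3609 (TRRAP), MIR1227 (PLEKHJ1), MIR4749 (PTOV1) and MIR4664 (FAM83H). Of MIR4749, 1 base is also antisense to exon 2 of 3 of ENSG00000268047, which is not analysed here. MIR1227 had 3.41 and 3.77 CPM in HHH and 3.74 and 4.01 in general in batch 1, and 3.16 to 3.68 and 3.04 to 3.82 in batch 2 (log2 fold change -0.06 ± 0.11, adjusted p = 0.783), beside 0.04 for PLEKHJ1. MIR4749 had 1.24 and 1.69 CPM in HHH and 1.04 and 1.54 in general in batch 1, and 1.03 to 1.28 and 1.34 to 1.92 in batch 2 (-0.21 ± 0.19, adjusted p = 0.550), beside -0.04 for PTOV1. The populations did not overlap for MIR4749 in batch 2, where the adjusted p was 0.114.

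MIR4664 was called in batch 2. There it had 1.15, 1.40 and 0.972 CPM in HHH and 1.98, 1.79 and 1.90 in general, without overlap, and in batch 1 it had 0.858 and 1.51 in HHH and 1.07 and 1.06 in general. The log2 fold change was -0.69 ± 0.18 (SE) in batch 2 (adjusted p = 0.0247) and 0.14 ± 0.33 in batch 1 (adjusted p = 0.896), and the interaction did not pass (adjusted p = 0.215). FAM83H, a gene known for its part in tooth enamel, fell by 0.53 on the log2 scale in batch 2 (SE 0.10, adjusted p = 0.00485). In batch 1 its log2 fold change was 0.30 ± 0.12 (adjusted p = 0.334). The interaction log2 ratio was -0.83 for both genes, and that of FAM83H passed (adjusted p = 0.0268). The call of MIR4664 was lost without HHH batch 2 replicate 1 (adjusted p = 0.0536) or 3 (0.0772), or general batch 2 replicate 1 (0.0747) or 3 (0.0716).

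MIR3609 (chr7:98881650-98881729) is in an intron of TRRAP, a scaffold of histone acetyltransferase complexes. It had 16.5 and 10.9 CPM in HHH and 18.8 and 14.5 in general in batch 1, and 6.06, 7.09 and 7.12 in HHH and 7.66, 10.5 and 5.52 in general in batch 2. The populations overlapped in both batches (log2 fold change -0.25 ± 0.16, adjusted p = 0.394). All 4 libraries of batch 1 lay above all 6 of batch 2, while TRRAP had 34.2 to 40.8 CPM in batch 1 and 78.6 to 137 in batch 2. The ratio of their levels per length was a mean of 121 in general and 87.6 in HHH in batch 1, and 14.8 and 18.2 in batch 2.

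**Figure D4:**
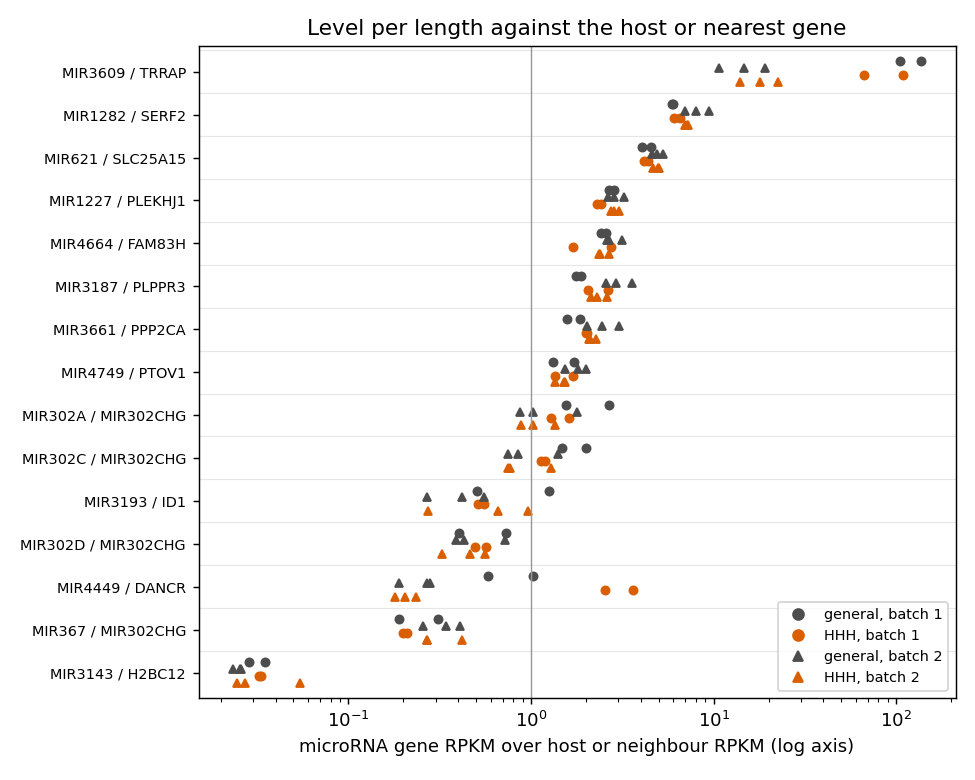
Level per length (RPKM) of 15 microRNA genes over that of the host, or of a neighbouring gene for MIR3193 and MIR3143, on a log axis, 1 point per library; the vertical line marks equal levels. MIR3609 over TRRAP and MIR4449 over DANCR separate the batches, with a range of 10.7 to 137 and 0.181 to 3.64, while MIR621 over SLC25A15 stays within 4.05 to 5.29.

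Ratios to the host were narrow for most other members. They ran from 5.90 to 9.44 for MIR1282, 4.05 to 5.29 for MIR621, 2.29 to 3.23 for MIR1227, 1.76 to 3.56 for MIR3187, 1.70 to 3.16 for MIR4664, 1.57 to 3.05 for MIR3661 and 1.32 to 2.00 for MIR4749. A locus shorter than a fragment can also collect fragments that overlap it only in part, and the exons of a host were merged over all its transcripts, so the size of a ratio does not separate hairpin from host reads.

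The remaining members overlapped no annotated gene. MIR3193 (chr20:31607186-31607240) begins 671 bases after the end of ID1, an inhibitor of basic helix-loop-helix factors. It had 0.750 and 0.939 CPM in HHH and 3.42 and 1.19 in general in batch 1, and 0.635, 3.30 and 2.14 in HHH and 1.08, 2.53 and 1.90 in general in batch 2. Its libraries spread widely (log2 fold change -1.46 ± 0.46 in batch 1, adjusted p = 0.254, and 0.14 ± 0.42 in batch 2, adjusted p = 0.860). ID1 fell by 0.60 on the log2 scale over all libraries (SE 0.10, adjusted p = 0.00282).

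MIR3143 (chr6:27147626-27147688) lies 64 bases after the histone gene H2AC12 and 771 bases from H2BC12. It had 1.05 and 0.939 CPM in HHH and 1.52 and 0.989 in general in batch 1, and 0.653, 1.90 and 1.04 in HHH and 0.486, 0.913 and 0.634 in general in batch 2. The populations overlapped in both batches. In batch 2 the log2 fold change was 0.82 ± 0.35 (adjusted p = 0.135), or 0.78 with the replicate block (adjusted p = 0.0238) and 1.12 without HHH batch 2 replicate 1 (adjusted p = 0.0258). Since the gene reached the limit through the HHH libraries of batch 2, this direction was in part set by the choice of members and is a description. H2BC12, on the minus strand while MIR3143 is on the plus strand, had a log2 fold change of 0.29 ± 0.17 there (adjusted p = 0.287). H2AC12, the nearer gene and on the strand of MIR3143, is not analysed here.

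More members were called for batch than for population, as was the case among all tested genes (5053 for batch and 701 for population). In the batch term of the fit of all libraries 6 of 17 members were called, all lower in batch 2, where 21.5% of all tested genes were called, 2953 higher and 2100 lower in batch 2. They were MIR4449 (log2 ratio of batch 2 over batch 1 -3.70 ± 0.35 (SE), adjusted p = 2e-06), ENSG00000264063 (-3.72 ± 0.75), MIR3648-2 (-2.49 ± 0.69), MIR3609 (-1.05 ± 0.16), MIR302A (-1.01 ± 0.15) and MIR302C (-1.01 ± 0.16). For ENSG00000264063 and MIR3648-2 this value rests on the HHH libraries of batch 1, and for MIR4449 in part on the limit. The hosts had other values. The log2 ratio was 1.60 ± 0.13 for TRRAP (adjusted p = 4.6e-07), -0.78 ± 0.088 for DANCR (adjusted p = 1.13e-05) and -0.37 ± 0.16 for MIR302CHG (adjusted p = 0.0684), and SNORA26 had -1.74 ± 0.13 (adjusted p = 2.17e-07). The part of the larger share of small RNA in batch 1 in these differences was not tested.

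No gene listed for the machinery of microRNAs was called between the populations. All 26 genes listed for processing and effect were tested. In the fit of all libraries 0 passed an adjusted p of 0.05, where 1373 of all 23552 tested genes did. The median log2 fold change of the 26 was -0.03. DROSHA had a log2 fold change of 0.00 ± 0.079 and DICER1 of 0.01 ± 0.074. LIN28A, which blocks let-7 maturation, was at 1470 to 2480 CPM (log2 fold change -0.21 ± 0.086, adjusted p = 0.182). In batch 2 alone 2 of the 26 passed the adjusted p without passing the fold limit, where 13.2% of all tested genes passed that p, namely DGCR8 (-0.32 ± 0.095, adjusted p = 0.0432) and TRIM71, a ubiquitin ligase and let-7 target (-0.48 ± 0.11, adjusted p = 0.0124). The batch term passed that p for 14 of 26, of which 12 were higher in batch 2, where 47.9% of all tested genes passed.

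Among long noncoding genes named as microRNA hosts, 33 of 75 were tested and 5 were called over all libraries, 1 higher and 4 lower in HHH, with a median log2 fold change of -0.13. Of all 23552 tested genes 2.98% were called, 150 higher and 551 lower. MIR4435-2HG was higher (1.01 ± 0.19, adjusted p = 0.00495). MIR124-2HG (-1.88 ± 0.21, adjusted p = 6.62e-05), MIR124-1HG (-0.79 ± 0.22, adjusted p = 0.0495), MIR1915HG (-0.91 ± 0.12, adjusted p = 0.000402) and MIR130AHG (-0.75 ± 0.15, adjusted p = 0.00663) were lower. The miR-124 genes are known for neurons, and 3 of the 5 neural markers were also called lower in HHH over all libraries. The part of neural cells was not tested, and in bulk RNA fewer cells of a type and less RNA per cell cannot be told apart.

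MIR663AHG was the only host transcript of this list that was called in batch 1 or in the interaction. It had 455 and 369 CPM in the HHH libraries of batch 1, 66.7 and 72.0 in the general ones and 56.6 to 79.9 in batch 2. The log2 fold change was 2.56 ± 0.14 in batch 1 (adjusted p = 7.85e-05) and -0.12 ± 0.12 in batch 2 (adjusted p = 0.553), and the interaction passed (-2.68, adjusted p = 2.15e-05).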

How the data were processed

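The authors deposited whole fragment counts per Ensembl gene, without normalization, for 10 libraries (TruSeq RNA), and a table of log2 values, a score that the authors computed from RPKM after TMM scaling. The submitters' processing notes list CASAVA 1.8.2, R 3.2.2, limma 3.26.9 and GRCh37 without a role. The aligner, the counting tool, its overlap rule and its use of strand are not given in the sources used here. The design text mentions a protein kinase C inhibitor that no label carries, and the study's text names WA09 cells.

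Of the identifiers 88.5% matched GENCODE 44 (GRCh38), from which symbols, coordinates, hosts and exons (merged over transcripts) were taken. Identifiers without a match took 7.44 to 20.3% of the counts and stayed in library sizes.

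Counts were filtered (filterByExpr, minimum count 10), scaled by TMM (factors 0.832 to 1.18) and fitted in R 4.3.3 by the quasi-likelihood test of edgeR 4.0.16, as 1 fit with a batch term, as 1 fit per batch, and with an interaction. Tests were two-sided and adjusted by Benjamini-Hochberg over every tested gene, and the fit was tested on simulated data. DESeq2 1.42.0 and limma 3.58.1 were alternatives. All members, their hosts, rows at the limit, and 2 lists are named. Members and lists were chosen with earlier results of these data known.

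The titles give replicate numbers but state no pairing. Libraries that share a number had weak positive correlations in batch 2 (r = 0.239, 0.143 and 0.113 on edgeR log2 CPM). Those with unlike numbers had r from -0.126 to -0.00512. Deviations were centred on the mean of population and batch, so these values are not independent and do not establish a pairing. With 0.5 CPM added before the log, r for replicate 3 was 0.0884. In batch 1, with 2 libraries a population, centring fixes every correlation at 0.113 or -0.113, which does not bear on pairing. The replicate block was an alternative.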

Additional observations from a re-analysis of the deposited data

Results flagged for a closer look

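For 3 of the 17 members the change from general to HHH differed between batches in the test of the interaction. The log2 ratio of the change in batch 2 over that in batch 1 was -4.39 for MIR3648-2, -5.03 for ENSG00000264063 and -1.93 for MIR3187. For MIR3648-2 and ENSG00000264063 the HHH libraries of batch 1 were high and all others low. For MIR3187 the populations stood in the opposite order in each batch. No library stood apart by Dixon's ratio in any of the 34 groups of 5 libraries (17 genes in 2 populations), which pool both batches. Dixon's ratio looks at a single extreme value. In HHH, MIR3648-2 (210 and 170 CPM) and ENSG00000264063 (89.1 and 68.2 CPM) were high in both libraries of batch 1. The ratio does not test such a pair of high libraries, so no conclusion is drawn from it for these genes.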

How the results depend on the processing

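Of the values of single members over all libraries under the alternatives, 294 kept their direction and their side of an adjusted p of 0.05. A further 19 passed it anew and 10 changed sign. No member passed that limit in the main fit, so none could lose it. The count of members called over all libraries (0) became 3 without a filter on low counts, 2 with limma and voom, 2 without both HHH libraries of batch 1 (added after the data were seen), and 0 to 2 when 1 library was left out (2 without HHH batch 2 replicate 3, and 1 each without HHH batch 1 replicate 3 and general batch 2 replicates 1, 2 and 3). Without a filter the count in batch 1 rose from 2 to 7 and that of the interaction from 3 to 5. That edgeR fit gave ENSG00000264063 an adjusted p of 2.38e-69 over all libraries, beside 0.0748 with the filter. The log2 fold change was 2.58 in both. Since the change of this gene differed between batches, p-values without the filter do not measure that spread. When 1 library was left out, counts ran from 2 to 6 in batch 1 (6 without general batch 1 replicate 2), 0 to 2 in batch 2 (0 without HHH or general replicate 3, 1 without general replicate 1), 2 to 3 in the interaction and 6 to 9 in the batch term. In batch 1 such a fit has 1 library in a population, which is assumed to vary like the other. MIR3648-2 and ENSG00000264063 were called in batch 1 and in the interaction under every alternative run.

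The log2 fold change of MIR3661 changed sign with the replicate block (-0.01), without general batch 1 replicate 1 (-0.02) or general batch 2 replicate 1 (0.00), on the deposited log2 values (-0.06) and without both HHH libraries of batch 1 (-0.07). That of MIR3187 did so without HHH (0.02) or general (0.00) batch 2 replicate 3. Leaving out 1 library gave -0.02 to 0.13 for MIR3661 and -0.49 to 0.02 for MIR3187. Without both HHH libraries of batch 1 it also changed for MIR3648-2 (-0.39), MIR3193 (0.15) and MIR4449 (-0.03). The causes were not tested. The replicate block left 0 members called over all libraries and gave 3 in batch 2, with MIR3143 added, and changed no other call. In batch 1 only replicate 2 is present in both populations. The block fit over all libraries thus takes its batch 1 difference from that pair alone.

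Over all genes, 701 calls became 1114 without a filter, 151 without a batch term and 1373 without a fold limit, the 136 in batch 1 became 836 and the 182 of the interaction 931 without a filter, and the 136 became 270 with library size only. When 1 library was left out, calls over all genes ran from 523 to 963 over all libraries, 48 to 744 in batch 1 (48 without HHH replicate 2, 522 without HHH replicate 3 and 744 without general replicate 2), 787 to 1194 in batch 2 and 21 to 222 in the interaction (21 without general batch 1 replicate 1, 25 without general batch 2 replicate 3, and 86 to 114 when any other library of batch 2 or replicate 3 of HHH in batch 1 was left out). Library size alone moved the median log2 ratio of all genes to 0.338 in the batch term and to -0.123 in the interaction, and the deposited log2 values gave -0.123 over all libraries. Members near 1 CPM rest on few counts, and those under 0.2 CPM, as MIR4449 in batch 2, on 8 to 12.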
